A study of Homo sapiens with 6 samples.

Results

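The genes described here carry out DNA replication and the last steps of deoxynucleotide synthesis. They are 47 genes chosen by symbol from what their products are known to do, out of 18768 genes to which the transcripts of the count table belong, and their level was followed in HCT116, an established line of human colorectal cancer. The cells were transfected with a negative control siRNA (siRNA-NC, 3 replicates) or with 1 siRNA against the long non-coding RNA AC010789.1 (si-AC010789.1, 3 replicates), so that both groups had gone through transfection. The siRNA-NC libraries are called control and the si-AC010789.1 libraries treated. RNA sequencing was done to compare the mRNAs of the 2 groups. Each replicate was, by the study's account, a biological repeat made from cells of a different generation, and the time between transfection and harvest is not given in the sources used here. The study reports that it verified the knockdown in its RNA-seq samples. The level of AC010789.1 itself was not analysed here, so the labels were not checked here against the silenced RNA.

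All 47 genes had counts, spread over 383 transcript rows, and all 47 passed the filter on low counts that left 13764 genes to be tested. The total count was between 11277222 and 13443866 per library, and 3 counts, taken as the lowest level that can be told from none, correspond to between 0.223 and 0.266 CPM (counts divided by the library size, which was scaled by TMM, an edgeR factor, and set to a common total of 1e+06). The mean level of a replication gene lay between 16.1 and 468.1 CPM, far above that floor, and the 47 genes together made up 0.551% to 0.575% of each library. Of 14 colon epithelial markers, 8 had counts. KRT8, KRT18, ELF3 and MUC13 had at least 744 counts in every library, but EPCAM had 35 to 68, CDH1 8 to 13, and CDH17 and LGR5 no more than 3. Of 10 mesenchymal markers, 7 had counts. VIM, the only one of these named here, had 7543 to 12190 counts. Only 5 of the 14 epithelial, 7 of 10 mesenchymal, 1 of 6 haematopoietic and 1 of 4 endothelial markers passed the filter and were tested. None of these passed an adjusted p of 0.05 between groups by edgeR, where 0.944% of all tested genes did. DESeq2, which called 5.21% of the genes for which it gave an adjusted p, called ELF3. Groups did not overlap for 2 of the 14 epithelial markers, ELF3 among them, and for 1 of the 10 mesenchymal markers. Over all tested genes, 12.2% were higher and 12.9% lower without overlap. The libraries of ELF3 were lower in the treated group without overlap (log2 fold change -0.40 and adjusted p = 0.110 by edgeR, adjusted p = 0.0216 by DESeq2). The part of this difference in the results for the replication genes was not tested. The line is therefore named as the labels name it, and its identity was not tested.

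A eukaryotic chromosome is copied from many origins. In G1 phase the origin recognition complex (ORC1 to ORC6), CDC6 and CDT1 load the ring-shaped MCM2-7 helicase onto DNA, and geminin (GMNN) blocks loading once replication has begun. In S phase, CDC45 and the GINS complex join MCM2-7 to form the active CMG helicase, with the help of MCM10. The unwound strands are coated by the RPA trimer, primed by DNA polymerase alpha-primase and extended by polymerases delta and epsilon, which PCNA, a ring loaded by the RFC complex, holds on the template. FEN1 and LIG1 finish the lagging strand, CHAF1A and CHAF1B place histones on the new DNA, and ribonucleotide reductase (RRM1, RRM2), TYMS and TK1 supply deoxynucleotides. Many of these genes are transcribed in a cell-cycle dependent way through promoters that hold E2F sites, and they are widely used as markers of proliferating cells, colorectal cancer cells included.

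Promoter sequence is shown for the genes on which the expression results turn, namely the helicase activation genes, TK1 and PCNA. RefSeq promoters (GRCh38.p14) of 250 bases before to 50 bases after a start site were given for 41 of the 47 genes, in 52 entries, and MCM4, MCM5, POLD3, RPA2, RPA3 and GINS4 are named only. Both strands were searched for 4 E2F-type 8-base sequences (TTTGGCGC, TTTCCCGC, TTTCGCGC and TTTGCCGC, whose matches may overlap one another) and for CCAAT. The E2F-type letters were found in 19 of the 52 entries (36.5%), against 3.31% of all 35116 promoter entries, and CCAAT in 30 of the 52 (57.7%), against 34.6%. The lines that follow give 150 bases before to 30 bases after the start site nearest to the transcript with the most counts, read 5′ to 3′ on the gene's strand, with the searched letters in capitals on whichever strand they lie.
MCM10, chr10:13161408-13161587, plus strand: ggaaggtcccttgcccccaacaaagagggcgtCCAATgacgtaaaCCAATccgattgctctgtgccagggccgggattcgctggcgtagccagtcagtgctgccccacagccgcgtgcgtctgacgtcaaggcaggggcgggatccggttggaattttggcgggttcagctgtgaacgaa
CDC45, chr22:19479676-19479855, plus strand: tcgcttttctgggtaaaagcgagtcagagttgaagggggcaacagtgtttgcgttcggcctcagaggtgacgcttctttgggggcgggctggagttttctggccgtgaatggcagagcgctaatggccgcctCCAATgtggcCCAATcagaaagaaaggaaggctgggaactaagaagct
GINS1, chr20:25407523-25407702, plus strand: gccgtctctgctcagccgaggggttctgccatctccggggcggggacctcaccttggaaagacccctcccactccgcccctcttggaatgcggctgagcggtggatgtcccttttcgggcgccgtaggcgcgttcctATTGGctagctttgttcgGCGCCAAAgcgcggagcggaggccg
GINS2, chr16:85688925-85689104, minus strand: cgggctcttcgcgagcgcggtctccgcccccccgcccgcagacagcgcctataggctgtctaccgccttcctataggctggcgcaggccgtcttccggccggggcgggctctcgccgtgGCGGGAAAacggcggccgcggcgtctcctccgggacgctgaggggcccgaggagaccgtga
GINS3, chr16:58392321-58392500, plus strand: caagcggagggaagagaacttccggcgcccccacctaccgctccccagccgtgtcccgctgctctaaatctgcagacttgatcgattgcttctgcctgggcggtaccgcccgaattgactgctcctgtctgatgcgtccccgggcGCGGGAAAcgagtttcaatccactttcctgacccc
TK1, chr17:78187175-78187354, minus strand: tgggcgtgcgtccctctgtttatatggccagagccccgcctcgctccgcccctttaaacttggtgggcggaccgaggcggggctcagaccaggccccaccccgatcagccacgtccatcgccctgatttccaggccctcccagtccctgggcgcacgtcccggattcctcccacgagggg
PCNA, chr20:5119929-5120108, minus strand: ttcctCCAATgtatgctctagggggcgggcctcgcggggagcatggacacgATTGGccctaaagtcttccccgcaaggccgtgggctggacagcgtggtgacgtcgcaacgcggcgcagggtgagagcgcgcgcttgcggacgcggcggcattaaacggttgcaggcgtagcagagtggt

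The windows of GINS1, GINS2 and GINS3 hold 1 E2F-type sequence each, all on the opposite strand, and these begin 6 bases after, 31 bases before and 5 bases before the start site. The windows of CDC45 and MCM10 hold 2 CCAAT sequences each, that of PCNA holds 2 and that of TK1 none. For MCM10 the nearest RefSeq start lies 2570 bases from the start of its most counted transcript, whereas for the other 6 genes it lies within 77 bases. A second PCNA entry, near chr20:5126573-5126872, does hold an E2F-type sequence 59 bases before its start site, and a second TK1 entry at chr17:78187003-78187302 holds CCAAT 77 and 46 bases before its own. A match is a run of letters and not a mapped site. Among genes with a promoter entry, an E2F-type sequence was present in 7 of 11 whose libraries were all higher in treated libraries, in 3 of 5 whose libraries were all lower and in 9 of 25 whose groups overlapped.

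In the comparison of si-AC010789.1 with siRNA-NC, the highest log2 fold changes among replication genes whose libraries did not overlap between groups were those of TK1, which salvages thymidine, and of 4 genes that switch on the helicase, GINS2, GINS1, CDC45 and MCM10, with values between 0.23 and 0.49. PCNA, POLA1, RPA3 and GINS3 were lower, again without overlap, with log2 fold changes between -0.21 and -0.15. Among genes whose groups overlapped, RRM2 (0.27) and GMNN (0.24) lay within the first range and ORC2 (-0.18) within the second. No replication gene passed an adjusted p of 0.05 with edgeR's quasi-likelihood test, where 0.944% of all tested genes did. None met the study's own criteria (unadjusted p under 0.05 and absolute log2 fold change over 1), which 0.777% of tested genes met. The criteria were applied here to edgeR values. The study used Cuffdiff, and it also set aside genes that differed significantly within a group. At an unadjusted p under 0.05 by edgeR, 9 of the 47 were higher and 2 were lower, against 8.25% and 8.91% of all tested genes. DESeq2 called 3 of the 47, namely TK1, GINS2 and GINS1, where it called 5.21% of the genes for which it gave an adjusted p.

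The 95% intervals of all 47 log2 fold changes stayed below 1 in size, 0.74 at most, and those of 39 genes stayed below 0.5. The standard errors were between 0.04 and 0.20. The median within-group coefficient of variation of the replication genes was 4.29% in control libraries and 5.17% in treated libraries, and it was 6.64% and 6.45% over the 8450 genes in the same range of levels. The median log2 fold change of the 47 genes was 0.05, with 28 above and 19 below 0, beside a median of -0.00059 over all tested genes, 49.9% of which were above 0. In bulk RNA, more cells in S phase and more RNA per cell cannot be told apart.

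**Figure D1:**
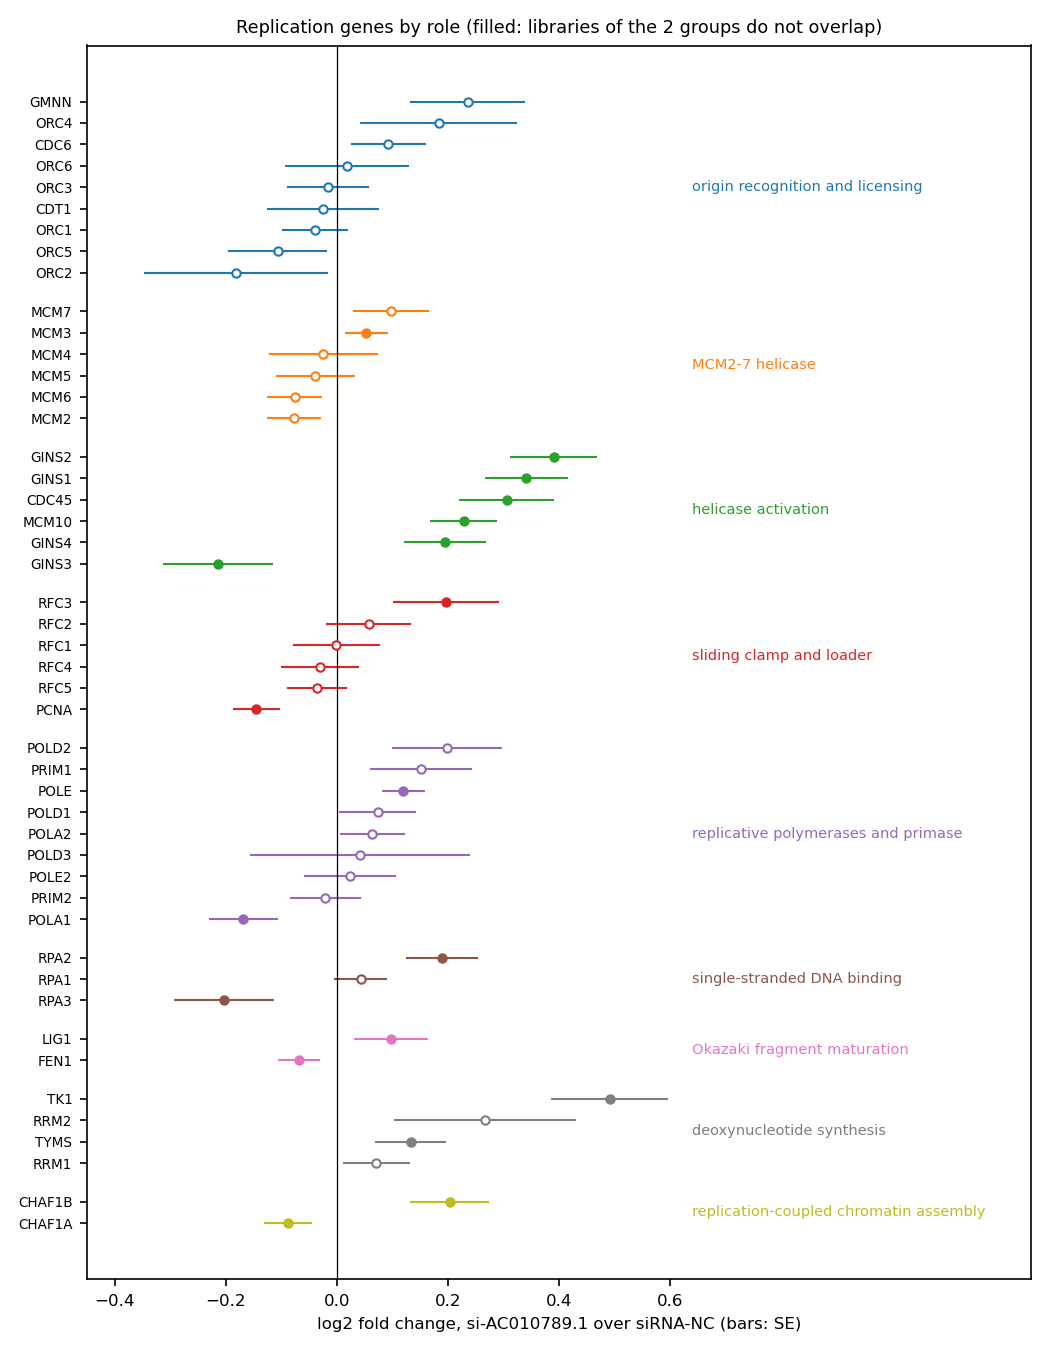
Fitted log2 fold change (x axis) of each of the 47 replication genes (y axis, grouped and coloured by role), with the standard error as bars. Filled points mark genes whose 3 libraries of one group all lay above the 3 of the other, and all 6 helicase activation genes are filled, 5 to the right and GINS3, whose groups overlap under RLE scaling, to the left.

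For 13 of the 47 genes all 3 treated libraries were higher than all 3 control libraries, and for 6 all 3 were lower. Over all tested genes these shares were 12.2% and 12.9%. Such a gene has an exact two-sided permutation p of 0.1, the smallest that 3 against 3 can give. The 13 were TK1 and TYMS, the 5 helicase activation genes GINS1, GINS2, GINS4, CDC45 and MCM10, and MCM3, RFC3, POLE, RPA2, LIG1 and CHAF1B. The 6 were GINS3, RPA3, POLA1, PCNA, CHAF1A and FEN1. With RLE in place of TMM scaling, 17 of these 19 genes had separate groups, and those of GINS3 and MCM3 overlapped.

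**Figure D2:**
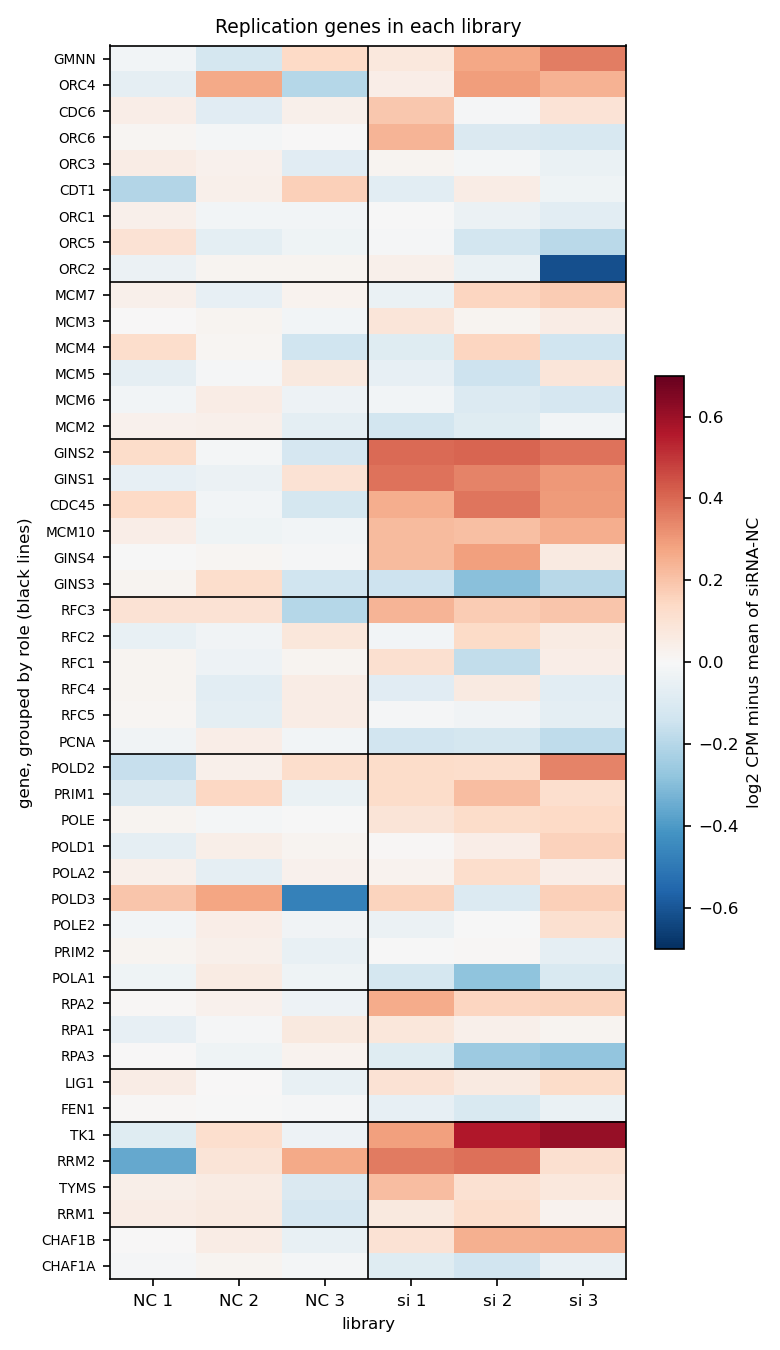
Difference in log2 CPM from the mean of the 3 siRNA-NC libraries (colour) for each replication gene (rows, grouped by role) in each library (columns, NC for siRNA-NC and si for si-AC010789.1). The block of GINS2, GINS1, CDC45, MCM10 and GINS4 is red in all 3 si libraries, and dark blue cells mark POLD3 in siRNA-NC replicate 3 and ORC2 in si-AC010789.1 replicate 3.

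Helicase activation was the role with the highest median, 0.27 on the log2 scale over 6 genes, and the groups did not overlap for any of the 6. GINS2 (chr16:85676198-85690073, minus strand, GENCODE v29 on GRCh38), a subunit of the GINS tetramer, was at 49.99, 45.4 and 42.2 CPM in control replicates 1, 2 and 3 and at 60.2, 60.6 and 59.5 CPM in the treated replicates. All 3 treated libraries lay within 1.12 CPM of each other and above every control, which gave a log2 fold change of 0.39 (SE 0.08, adjusted p = 0.0864 by edgeR). GINS1 (chr20:25407727-25452628), another subunit of the tetramer, was at 33.6, 33.9 and 37.5 CPM in control libraries and at 45.5, 44.4 and 43.2 CPM in treated libraries. Its log2 fold change was 0.34 (SE 0.07, adjusted p = 0.101 by edgeR).

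CDC45 (chr22:19479459-19520612), the subunit that joins the helicase together with GINS, was at 58.1, 52.0 and 48.3 CPM in control libraries and at 62.7, 68.2 and 64.7 CPM in treated libraries, a log2 fold change of 0.31 (SE 0.09, adjusted p = 0.153 by edgeR). MCM10 (chr10:13161554-13211104), which is needed to activate the assembled helicase, was at 48.0, 45.5 and 45.8 CPM against 54.1, 53.7 and 55.4 CPM, a log2 fold change of 0.23 (SE 0.06, adjusted p = 0.139 by edgeR). For both genes the lowest treated library stood above the highest control, by 4.66 CPM for CDC45 and by 5.74 CPM for MCM10. GINS4 was at 55.4 to 56.2 CPM in control libraries and at 58.3 to 68.0 CPM in treated libraries, so that treated replicate 3 lay close to the controls. GINS3, the remaining subunit of the tetramer, went the other way, with 21.8, 23.5 and 19.5 CPM in control libraries and 19.5, 17.6 and 18.8 CPM in treated libraries, groups that stood only 0.03 CPM apart. Its log2 fold change was -0.21 (SE 0.10, adjusted p = 0.337 by edgeR). Summed over the 6 genes, the level was 266.9, 256.4 and 248.8 CPM in control libraries and 307.0, 312.5 and 299.8 CPM in treated libraries.

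**Figure D3:**
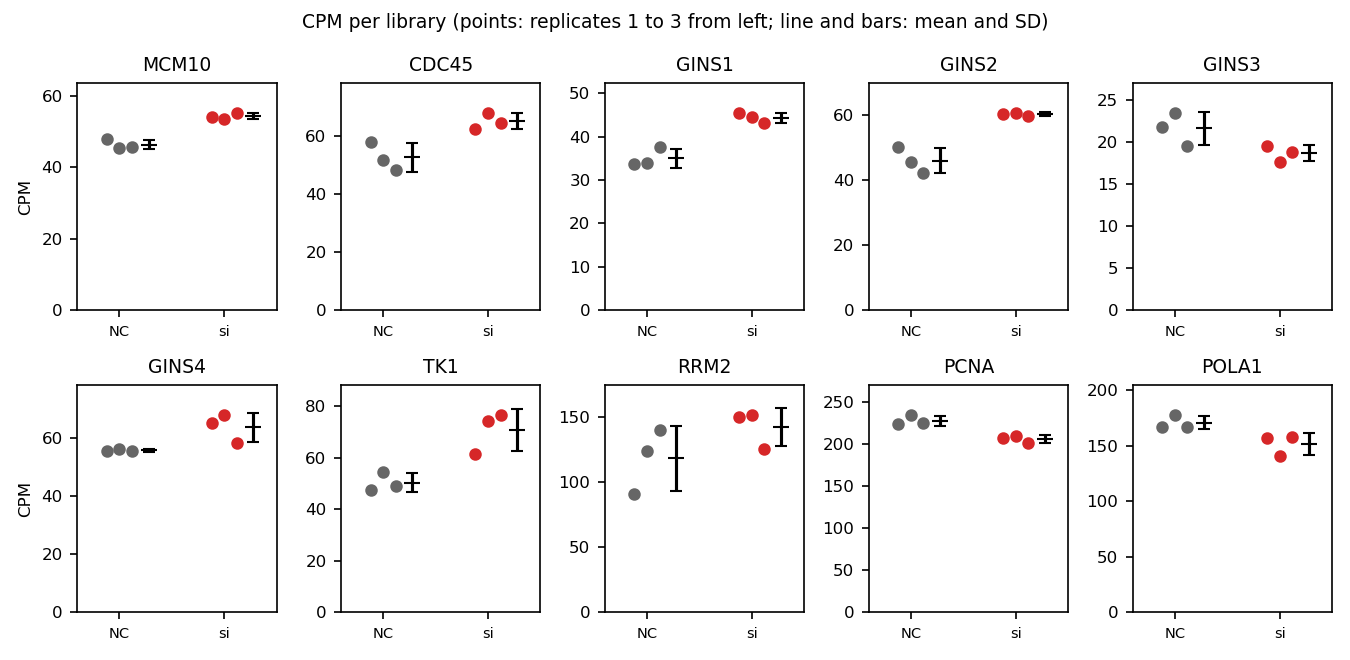
CPM (y axis, from 0) of 10 replication genes in the 3 siRNA-NC libraries (grey, NC) and the 3 si-AC010789.1 libraries (red, si), with the mean and SD of each group in black. The red points of MCM10, CDC45, GINS1, GINS2, GINS4 and TK1 all lie above the grey ones and those of GINS3, PCNA and POLA1 all lie below, while those of RRM2 overlap.

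Deoxynucleotide synthesis had the second highest median, 0.20, and all 4 of its genes had a log2 fold change above 0. TK1 (chr17:78174075-78187233, minus strand), thymidine kinase, was at 47.4, 54.4 and 49.0 CPM in control libraries and at 61.3, 74.1 and 76.7 CPM in treated libraries. It had the highest fold of the 47 genes, 1.41-fold (log2 fold change 0.49, SE 0.11, 95% interval 0.24 to 0.74, adjusted p = 0.097 by edgeR). Over the alternatives the adjusted p of TK1 ran from 0.0063 with DESeq2 to 0.243, that of GINS2 from 0.0089 with DESeq2 to 0.230 and that of GINS1 from 0.0392 with DESeq2 to 0.243, while their log2 fold changes stayed between 0.31 and 0.58.

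TYMS, thymidylate synthase, was at 160.2 to 178.7 CPM in control libraries and at 180.8 to 199.5 CPM in treated libraries. RRM2, the regulated small subunit of ribonucleotide reductase, was at 90.6, 124.0 and 140.0 CPM in control libraries, so that replicate 1 was low, and at 149.9, 151.6 and 125.5 CPM in treated libraries, and the groups overlapped (log2 fold change 0.27, SE 0.16, adjusted p = 0.460 by edgeR). Without control replicate 1 the log2 fold change of RRM2 was 0.11, and without control replicate 3 it was 0.41. For TYMS it was 0.13, and 0.083 without control replicate 3. RRM1, the large subunit, was at 393.6, 397.8 and 351.1 CPM against 399.2, 413.4 and 387.1 CPM, a log2 fold change of 0.07 (SE 0.06) and the lowest of the role, which was 0.014 without control replicate 3.

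The MCM2-7 helicase core was the most abundant role by summed CPM. The sum of its 6 genes was 1933, 1901 and 1845 CPM in control libraries and 1835, 1918 and 1913 CPM in treated libraries, and all 6 log2 fold changes were under 0.1 in size, with a median of -0.03. MCM2 had the lowest value, with 491.3, 491.6 and 458.8 CPM against 440.2, 453.4 and 473.5 CPM (log2 fold change -0.08, SE 0.05). MCM7 had the highest, with 363.9, 341.0 and 361.5 CPM against 344.4, 394.9 and 401.9 CPM (log2 fold change 0.10, SE 0.07), which was 0.16 without treated replicate 1 and 0.055 without treated replicate 3. The groups of both genes overlapped. Only MCM3 had separate groups, with 374.1 to 384.8 CPM in control libraries and 384.8 to 403.0 CPM in treated libraries, which touch at the printed precision. The 95% intervals of the 6 genes reached 0.26 at most, below the fitted 0.39 of GINS2. The interval of GINS2 itself ran from 0.20 to 0.58, and a difference between it and the MCM genes was not tested.

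Among the 9 genes of origin recognition and licensing, none had separate groups, and the median log2 fold change was -0.02. GMNN, the inhibitor of licensing, was highest at 53.5, 49.8 and 59.6 CPM in control libraries and 57.0, 65.4 and 69.5 CPM in treated libraries (log2 fold change 0.24, SE 0.10, adjusted p = 0.313 by edgeR), with treated replicate 1 inside the control range. ORC2 was lowest, and that value rested on 1 library. It was at 56.4, 58.7 and 58.7 CPM in control libraries and at 59.5, 56.1 and 37.8 CPM in treated libraries, and its log2 fold change of -0.18 was -0.0056 without treated replicate 3 and -0.30 without treated replicate 1. The loading factors CDC6, with 126.4 to 138.2 CPM in control libraries and 132.9 to 152.3 CPM in treated libraries, and CDT1, with 71.9 to 93.1 CPM and 78.7 to 85.7 CPM, overlapped between groups. ORC1, ORC3, ORC5 and ORC6 had log2 fold changes between -0.11 and 0.02, and ORC4 was at 0.18 with overlapping groups, 0.33 without control replicate 2 and 0.084 without control replicate 3.

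In the sliding clamp and its loader, PCNA and RFC3 stood on opposite sides. PCNA (chr20:5114953-5126626, minus strand) was at 223.3, 234.4 and 224.2 CPM in control libraries and at 207.1, 209.0 and 200.7 CPM in treated libraries. All treated libraries were lower, with a log2 fold change of -0.15 (SE 0.04, adjusted p = 0.164 by edgeR), that is 0.904 times the control level. RFC3, a small subunit of the loader, was at 55.4, 55.3 and 45.0 CPM in control libraries and at 61.1, 58.4 and 59.0 CPM in treated libraries (log2 fold change 0.20, SE 0.10). Without control replicate 3, its lowest library, the value was 0.10. RFC1, RFC2, RFC4 and RFC5 had log2 fold changes between -0.04 and 0.06, each with overlapping groups.

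Of 9 genes of the polymerases and primase, 7 had a log2 fold change above 0 and the median was 0.06. POLA1 (chrX:24693919-24996986), the catalytic subunit of polymerase alpha that begins each Okazaki fragment, was the lowest, with 167.2, 177.8 and 167.3 CPM in control libraries and 157.0, 140.5 and 158.3 CPM in treated libraries (log2 fold change -0.17, SE 0.06, adjusted p = 0.242 by edgeR). Its groups did not overlap. POLE, the catalytic subunit of the leading-strand polymerase epsilon, was at 198.6 to 203.5 CPM in control libraries and at 213.4 to 221.2 CPM in treated libraries, a log2 fold change of 0.12 (SE 0.04, adjusted p = 0.200 by edgeR) and the other gene of this role with separate groups. POLD2, an accessory subunit of polymerase delta, had the highest value, with 73.7, 84.3 and 89.8 CPM against 90.1, 89.7 and 104.6 CPM (log2 fold change 0.20, SE 0.10), where treated replicate 2 lay just inside the control range. Its log2 fold change was 0.12 without either control replicate 1 or treated replicate 3. POLD3 had the largest standard error of all 47 genes, 0.20, with control replicate 3 at 51.2 CPM and the other 5 libraries between 66.4 and 86.1 CPM.

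Among the genes that coat, join and package the new strands, none passed the adjusted threshold, and the values within the RPA trimer, of the enzymes LIG1 and FEN1 and within CAF-1 lay on both sides of 0. RPA2, the middle subunit of the RPA trimer, was at 44.1, 44.8 and 42.8 CPM in control libraries and at 52.5, 48.8 and 49.0 CPM in treated libraries (log2 fold change 0.19, SE 0.07). RPA3, the small subunit, was at 17.3, 16.9 and 17.6 CPM and at 16.3, 14.5 and 14.3 CPM (log2 fold change -0.20, SE 0.09). RPA1, the large subunit, overlapped between groups, with a log2 fold change of 0.04.

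LIG1, the ligase, was at 38.9, 37.6 and 36.3 CPM against 40.3, 39.3 and 41.1 CPM (log2 fold change 0.10, SE 0.07). FEN1, the flap nuclease, was at 299.6, 296.8 and 295.8 CPM against 286.0, 276.6 and 288.3 CPM (log2 fold change -0.07, SE 0.04). CHAF1B, of the histone chaperone CAF-1, was at 51.5, 53.2 and 49.5 CPM against 55.0, 61.0 and 61.4 CPM (log2 fold change 0.20, SE 0.07), and CHAF1A, another of its subunits, was at 154.6, 157.4 and 153.8 CPM against 146.6, 141.7 and 149.9 CPM (log2 fold change -0.09, SE 0.04). The groups of RPA2, RPA3, LIG1, FEN1, CHAF1A and CHAF1B did not overlap, and their adjusted p was between 0.223 and 0.512 by edgeR.

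Levels of different genes were compared per length, as TPM (counts per base of transcript, scaled to a total of 1e+06) computed from the counts and the annotated transcript lengths. In control libraries, PCNA was the highest of the 47, at 325.7 TPM ± 10.4 (SD, n = 3), and ORC4 the lowest, at 14.8 TPM ± 2.0 (SD, n = 3). The subunits of MCM2-7 fell into 2 sets. MCM2, MCM7, MCM3 and MCM4 were at 307.2, 275.8, 260.4 and 235.0 TPM, whereas MCM5 and MCM6 were at 95.3 and 83.1 TPM, and the gap between the sets was wider than the SD of any of the 6, 34.5 TPM at most. MCM3 and MCM4 did not differ beyond their spread.

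The mean levels of the genes that join MCM2-7 in the CMG helicase were below those of all 6 MCM genes in control libraries. CDC45 was at 58.0 TPM, GINS2 at 41.0, GINS4 at 35.4, GINS1 at 22.5 and GINS3 at 20.1 TPM in control libraries, and in treated libraries the same genes were at 78.2, 56.8, 40.7, 29.1 and 16.1 TPM. There CDC45, at 78.2 TPM ± 14.3 (SD, n = 3), and MCM6, at 79.6 TPM ± 2.2 (SD, n = 3), did not differ beyond their spread. That closeness rested on 1 library. In treated replicates 1, 2 and 3 CDC45 was at 94.4, 72.7 and 67.6 TPM, and MCM6 at 81.9, 79.3 and 77.5 TPM. Treated replicate 1 gave most of its CDC45 counts to a different transcript row from treated replicates 2 and 3. In control libraries RRM1, at 257.3 TPM ± 17.5 (SD, n = 3), stood above RRM2, at 104.7 TPM ± 6.5 (SD, n = 3), and the RPA subunits were at 113.2 TPM for RPA1, 51.4 for RPA2 and 23.3 for RPA3. The scale mattered for MCM10 and for other genes. MCM10 had a higher CPM in all 3 treated libraries, but its level per length was 30.4 TPM ± 3.4 (SD, n = 3) in control libraries and 30.3 TPM in treated libraries. TPM also depends on the lengths of the transcripts to which counts were assigned. LIG1, RFC3, POLE, CHAF1A and MCM3 likewise had groups that were separate in CPM but overlapped in TPM. The mean of LIG1 was 37.2 TPM in control libraries and 35.0 TPM in treated libraries, the reverse of its order in CPM. The groups of TK1, GINS1, GINS2 and PCNA, among others, did not overlap on either scale.

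**Figure D4:**
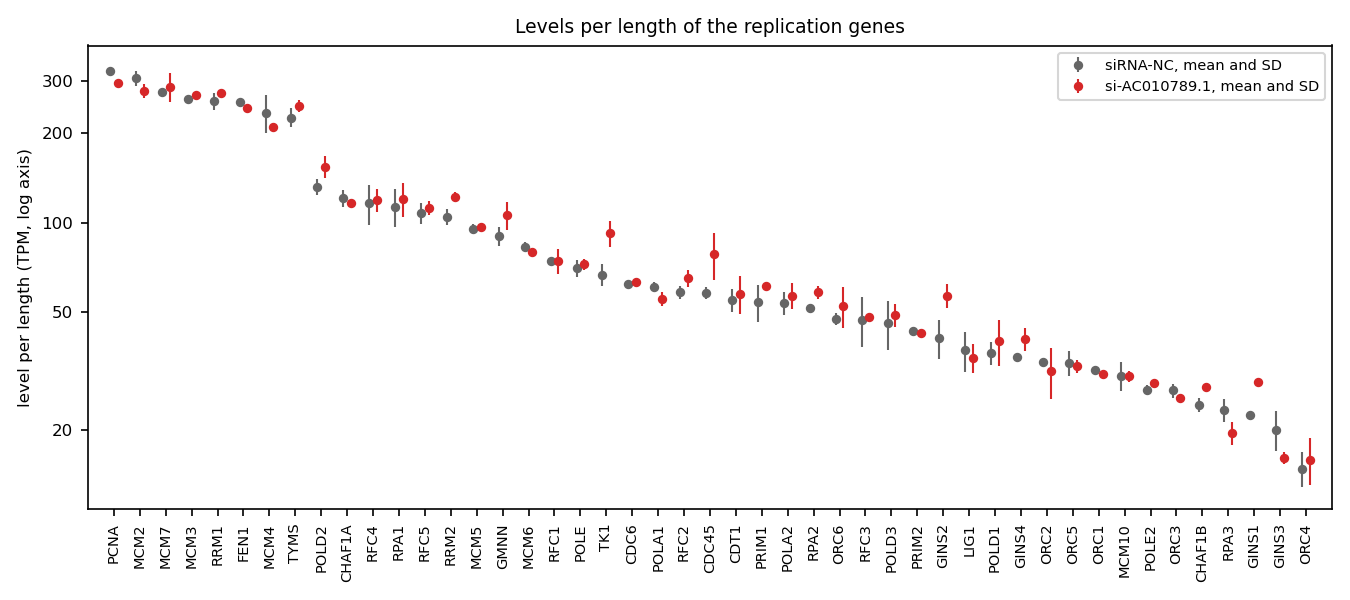
Level per length (TPM, log axis) of the 47 replication genes, ordered by their mean in siRNA-NC, with the mean and SD over the 3 siRNA-NC libraries (grey) and the 3 si-AC010789.1 libraries (red). PCNA is highest and ORC4 lowest, MCM2, MCM7, MCM3 and MCM4 sit with RRM1 and FEN1 at the top, and the GINS genes lie in the lower range.

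At the level of single transcripts, 194 of the 383 rows of the replication genes were tested and none passed an adjusted p of 0.05 by edgeR, where 0.0135% of all tested transcripts did. At an unadjusted p under 0.05 there were 14 of the 194 (7.22%, against 5.74% of all tested transcripts), 7 higher and 7 lower. DESeq2 called 3, which were POLE2-202, GMNN-207 and RFC3-202. The share of all transcripts that DESeq2 called is not given here, so the 3 cannot be set against it. The coefficient of variation between replicates that edgeR fitted was 0.698 for transcripts and 0.17 for genes. The 5 rows with the smallest p by edgeR were those of GMNN-207, POLE2-202, TK1-201, RFC3-201 and RFC3-202, with adjusted p between 0.223 and 0.696. POLE2-202 passed the filter on low counts only through the treated libraries, and GMNN-207 and RFC3-202 only through the control libraries. A low p was therefore likely for these rows from the start, with either program, and it is no evidence of a change.

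POLE2-202 (ENST00000539565) had 0, 0 and 0 counts in control libraries and 28, 38 and 101 counts in treated libraries, while the POLE2 sum over its 11 rows was 17.7 to 18.6 CPM in control libraries and 17.5 to 19.4 CPM in treated libraries. GMNN-207 (ENST00000620958) had 30, 25 and 65 counts in control libraries and 1, 1 and 0 in treated libraries. RFC3-202 (ENST00000434425) had 94, 242 and 17 counts in control libraries and 3, 6 and 0 in treated libraries, and RFC3-201 (ENST00000380071) had 527, 491 and 579 against 696, 725 and 729 counts. TK1-201 (ENST00000301634), with 458, 498 and 511 against 572, 766 and 791 counts, carried 69.0% to 85.6% of the counts of TK1 in each library.

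Other rows differed widely in counts between libraries of the same group. In 13 of the 47 genes the row with the most counts was not the same in all libraries, and in 21 the share of the overall leading row varied by more than 20 percentage points. MCM3 showed it most plainly. MCM3-205 (ENST00000596288) had 3890, 1 and 26 counts in control replicates 1, 2 and 3 and 67, 4398 and 55 in treated libraries, MCM3-207 (ENST00000616552) had 88, 4818 and 202 and then 500, 121 and 450, and MCM3-201 (ENST00000229854) had 22, 1 and 4412 and then 3820, 34 and 4101. Each library thus gave most MCM3 counts to 1 of these 3 rows, and which row that was did not follow the groups. The MCM3 sum stayed between 374.1 and 403.0 CPM in all 6 libraries.

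For 3 genes, coding bases present in a transcript row and absent from another row of the gene are given here. They are taken from GENCODE v29 transcripts on GRCh38, 5′ to 3′ on the gene's strand. Other differences between the rows are not shown, and the MCM3 bases do not set MCM3-205 apart from MCM3-207. For MCM3 the line gives the 58 coding bases of MCM3-205 and MCM3-207 that lie upstream of MCM3-201, with the start codon in capitals. For CDC45 and POLE2 the capitals mark the exon absent from the other transcript, of 138 and 78 bases, between 15 flanking bases on each side.
MCM3, chr6:52284752-52284809, minus strand: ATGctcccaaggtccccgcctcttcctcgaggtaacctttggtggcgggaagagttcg
CDC45, chr22:19482690-19482827, plus strand: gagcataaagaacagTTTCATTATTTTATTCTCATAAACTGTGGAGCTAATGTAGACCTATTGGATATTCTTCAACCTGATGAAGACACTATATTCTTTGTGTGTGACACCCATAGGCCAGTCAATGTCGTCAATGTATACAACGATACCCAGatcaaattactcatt
POLE2, chr14:49674350-49674427, minus strand: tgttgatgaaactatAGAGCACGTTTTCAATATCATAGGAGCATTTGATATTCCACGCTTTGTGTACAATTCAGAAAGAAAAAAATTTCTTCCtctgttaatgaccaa

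The CDC45 exon is in CDC45-201 (ENST00000263201), which had 564, 517 and 106 counts in control libraries and 2, 700 and 589 in treated libraries, and not in CDC45-202 (ENST00000404724), which had 74, 150 and 493 and then 533, 80 and 126 counts. Control replicate 3 and treated replicate 1 thus gave most CDC45 counts to the row without the exon, and the other 4 libraries to the row with it. The POLE2 exon is in POLE2-206 (ENST00000554396), with 116, 142 and 27 counts in control libraries and 124, 90 and 113 in treated libraries, and not in POLE2-202. How reads common to several transcripts were divided is not given in the sources used here, and its part in these rows was not tested.

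**Figure D5:**
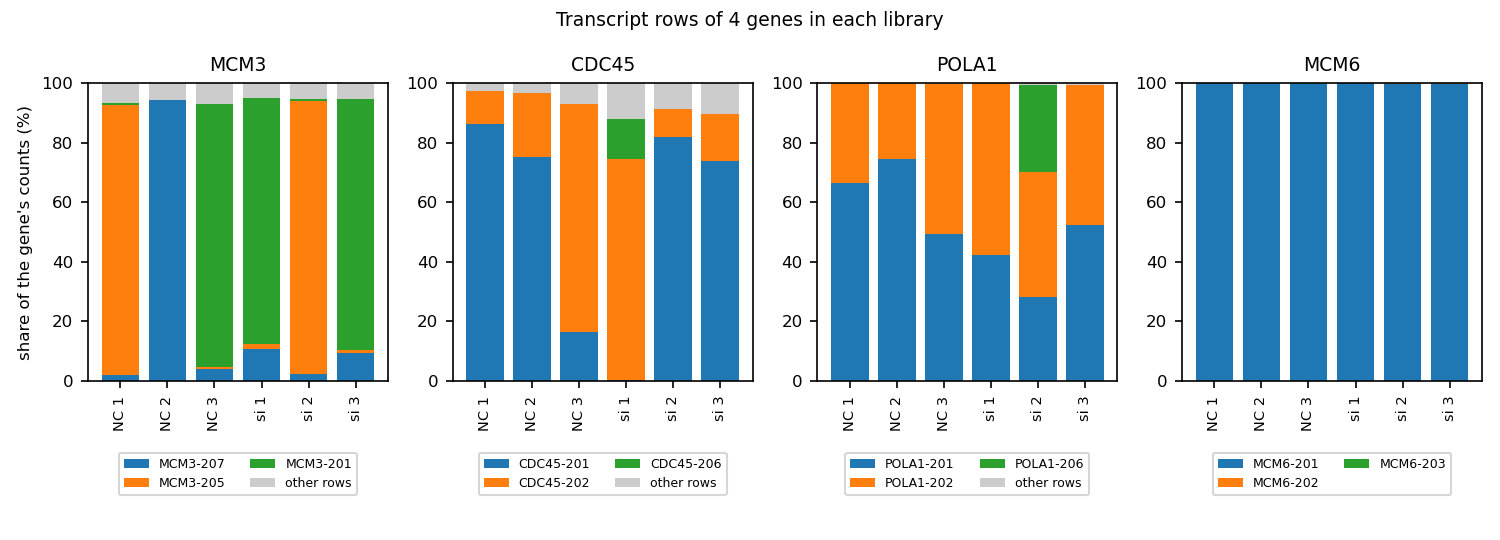
Share of a gene's counts (%, y axis) assigned to its 3 leading transcript rows (colours) and to its other rows (grey) in each library (x axis) for MCM3, CDC45, POLA1 and MCM6. MCM3 and CDC45 switch their leading row between libraries of the same group, whereas MCM6-201 holds at least 99.6% of MCM6 counts in every library.

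Around the 47 genes, 86 other genes of the pathway (firing kinases, fork protection, E2F and pocket proteins, nucleotide synthesis, chromatin behind the fork) were described in the same way. All 86 were tested, none passed an adjusted p of 0.05 by edgeR, and 15 were higher and 4 lower at an unadjusted p under 0.05, against 8.25% and 8.91% of all tested genes. DESeq2 called 5, CDC25A, CCNA2, CTPS1, RRM2B and NME1, where it called 5.21% of all genes with an adjusted p. The median log2 fold change was 0.06. The groups did not overlap for 23 genes that were higher and 8 that were lower, against 12.2% and 12.9% of all tested genes.

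The highest log2 fold changes among the 23 were those of CDC25A, PPAT and RBBP7. CDC25A, a phosphatase that activates CDK2, was at 39.2, 37.8 and 38.1 CPM in control libraries and at 77.4, 55.7 and 56.9 CPM in treated libraries (log2 fold change 0.72, SE 0.14, adjusted p = 0.0747 by edgeR). PPAT, which starts purine synthesis, was at 30.3, 34.7 and 28.5 CPM against 67.0, 41.0 and 37.5 CPM (log2 fold change 0.64, SE 0.23, adjusted p = 0.236 by edgeR), and RBBP7, a histone-binding protein, was at 159.3, 158.6 and 142.0 CPM against 239.6, 221.4 and 164.1 CPM (log2 fold change 0.44, SE 0.14, adjusted p = 0.192 by edgeR). Treated replicate 1 was the highest library for all 3, and without it the log2 fold change of PPAT was 0.33.

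The lowest log2 fold changes among the 8 were those of RRM2B, CCNA2 and E2F1. PRPS2 and POLD4, whose groups overlapped, had log2 fold changes of -0.39 and -0.36. RRM2B, the p53-induced small subunit of ribonucleotide reductase, was at 41.9, 41.2 and 42.2 CPM in control libraries and at 32.8, 30.4 and 33.3 CPM in treated libraries (log2 fold change -0.38, SE 0.07, adjusted p = 0.0744 by edgeR). CCNA2, the S-phase cyclin A2, was at 120.9, 124.2 and 125.7 CPM against 104.5, 96.4 and 100.6 CPM (log2 fold change -0.30, SE 0.05, adjusted p = 0.064 by edgeR), and E2F1, a transcription factor of the E2F family, was at 87.8, 77.1 and 84.0 CPM against 65.4, 67.0 and 71.7 CPM (log2 fold change -0.29, SE 0.07, adjusted p = 0.130 by edgeR). All 3 had groups that did not overlap.

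Of the 47 genes, 28 share genomic span with another annotated gene, and whether counting used strand is not given in the sources used here, so that their levels may hold reads of the partner. For 16 a partner codes for a protein. These are GINS2 (with GSE1), RPA3 (with UMAD1), RPA1 (with SMYD4), RRM2 (with AC007240.1, on the same strand), FEN1 (with FADS2 and TMEM258), CHAF1A (with UBXN6), CHAF1B (with MORC3), TYMS (with ENOSF1), MCM7 (with AP4M1), MCM2 (with TPRA1), ORC4, RFC4, RFC5, POLA2, PRIM1 and POLD1. For the other 12 the partners are antisense or other non-coding genes or pseudogenes, and these are GINS3, GINS4, ORC2, PCNA, RFC1, RFC3, POLA1, PRIM2, POLD3, POLE2, LIG1 and RRM1. The remaining 19, among them TK1, CDC45, MCM10, GINS1, POLE, RPA2 and GMNN, overlap no other annotated gene.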

How the data were processed

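RNA was extracted from HCT116 cells transfected with siRNA-NC or si-AC010789.1 (3 replicates each) and made into paired-end TruSeq libraries for a NovaSeq instrument. The values deposited by the authors are raw counts, 1 whole number for each Ensembl transcript in each library. The submitters' processing notes name CASAVA 1.8, TopHat2 2.0.6 and the builds GRCh38 and mm10 without giving their roles; the counting program and how shared reads were divided are not given in the sources used here, and the study names Cuffdiff, which needs alignments and was not run. Totals ranged from 11277222 to 13443866, and floors of 3 counts cover counting error only.

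Of 98886 transcripts, 98803 were matched to GENCODE v29 (GRCh38), with over 99.9% of the counts of each library, and summed to 18768 genes. The other 83 stayed out. All genes were tested with edgeR 4.0.16 in R 4.3.3 (filterByExpr set to at least 10 counts and 15 in total, TMM factors from 0.9935 to 1.0073, quasi-likelihood test, Benjamini-Hochberg adjustment over all 13764 genes tested), and 44297 transcripts in the same way. CPM uses TMM-scaled library sizes. TPM was computed from counts and annotated transcript lengths. Where nothing separates cultures from libraries, p-values measure the spread between these samples. Values per library are given for the 5 genes with the highest and the 5 with the lowest log2 fold change among those with separate groups and for the highest and lowest gene of each role; of the 86 pathway genes, for 3 in each direction; and for the 5 transcripts with the smallest p. GINS4, TYMS, RRM2, POLE, POLD3, CDC6, CDT1, MCM3 and other genes were given values in addition, some after their values were seen, as were the rows of MCM3, CDC45 and POLE2. The members and lists were chosen with earlier results of these data known. Alternatives were DESeq2 1.42.0, RLE normalization, testing with no filter or with genes averaging 1 CPM or more, the replicate number as a block, and dropping each library in turn. Simulated counts were used to test the scripts. Python 3.11.15, pandas 2.3.3, numpy 2.4.6, scipy 1.17.1 and matplotlib 3.10.9 were used.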

Additional observations from a re-analysis of the deposited data

How the results depend on the processing

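Across 11 alternatives, the 21 genes chosen by rule kept the sign of their log2 fold change in all 231 combinations of gene and alternative. They were chosen from these same data by separate groups or by rank in their role, so a change of sign was unlikely from the start. Other members near 0 did change sign, such as MCM4, at -0.024 and at 0.042 without siRNA-NC replicate 1. Of the 21, none but TK1, GINS2 and GINS1, all with DESeq2, passed an adjusted p of 0.05. With DESeq2, 3 replication genes, 5 other pathway genes and 3 transcripts of replication genes were called, against 0 of each by edgeR. DESeq2 called 5.21% of all genes with an adjusted p, and its share over all transcripts is not given here. RLE normalization, no filter and a filter at a mean of 1 CPM called 0 of each. None of the alternatives gave a replication gene that met the study's criteria. When a library was left out, the median log2 fold change of the 47 genes ran from 0.0435 without si-AC010789.1 replicate 1 to 0.0725 without si-AC010789.1 replicate 2, beside the reported 0.05. In single libraries, the median difference in log2 CPM from the siRNA-NC mean was 0.011, 0.019 and -0.018 for siRNA-NC replicates 1, 2 and 3. For the si-AC010789.1 replicates it was 0.045, 0.050 and 0.057. The number of replication genes at an unadjusted p under 0.05, a count added after the data were seen, was between 8 and 13.

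The labels do not say whether same-numbered libraries are paired, and deviations within 3 libraries per group cannot settle it. The correlations of the deviations of same-numbered libraries were 0.09, 0.0027 and 0.00066. The first, for replicate 1, was the highest of any control and treated pair, while control replicate 2 correlated best with treated replicate 3 (0.079). With the replicate block, 0 replication genes, 0 other pathway genes and 0 transcripts were called at adjusted p under 0.05, as without it. At an unadjusted p under 0.05 by edgeR there were 13 replication genes with the block and 11 without it. Depth did not limit the detection of these genes, since the lowest averaged 16.1 CPM against a floor of at most 0.266 CPM. It does limit precision, as RPA3 had only 176 to 234 counts per library. The part of counting error in the spread between libraries was not tested. With 3 libraries per group, the p of a single gene cannot fall below 0.1 in an exact permutation test.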

Other observations

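Of 18 genes of purine and pyrimidine synthesis, which lie upstream of ribonucleotide reductase, 5 were higher and 0 lower at an unadjusted p under 0.05 by edgeR, against 8.25% and 8.91% of all tested genes. Of the 18, 0 passed the adjusted threshold, and the groups did not overlap for 6, all higher in si-AC010789.1, where 12.2% of all tested genes were higher without overlap and 12.9% lower. CTPS1, which makes CTP, was at 163.7 CPM ± 8.9 (SD, n = 3) in siRNA-NC and 200.7 CPM ± 8.8 (SD, n = 3) in si-AC010789.1, with a log2 fold change of 0.29 (SE 0.06, adjusted p = 0.0864 by edgeR). CAD, which carries out the first steps of pyrimidine synthesis, had a log2 fold change of 0.15 (SE 0.06). In thymidylate, folate and dNTP metabolism, DTYMK, the kinase that follows TK1, had 0.34 (SE 0.10) and NME1, a nucleoside diphosphate kinase, had 0.29 (SE 0.06), each with separate groups. SAMHD1, which breaks down dNTPs, had -0.14 (SE 0.07), also with separate groups, and -0.088 without siRNA-NC replicate 1.

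In the E2F and pocket protein genes, the median log2 fold change was -0.0059 over 17 genes, and E2F1 was the only one with an unadjusted p under 0.05 by edgeR. TFDP1, a partner of E2F proteins, had 0.32 (SE 0.18) with overlapping groups and 0.13 without siRNA-NC replicate 3, and RB1 had -0.09 (SE 0.05) with separate groups. Behind the fork, RBBP4, which with CHAF1A and CHAF1B makes up CAF-1, had 0.27 (SE 0.09) with separate groups, beside 0.20 for CHAF1B and -0.09 for CHAF1A.

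Over the transcript rows of the 47 genes, protein-coding rows held 89.9% to 91.3% of the counts of a library and rows annotated as retained introns 4.87% to 6.96%. The highest retained-intron share was in si-AC010789.1 replicate 3 and the lowest in si-AC010789.1 replicate 1, so the 2 extremes lay in the same group.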
